A study of Mus musculus with 56 samples.

Results

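Odc deficiency was examined in TH1 cells by comparing 4 libraries labelled Odc-/- (KO1 to KO4) with 4 WT libraries (WT1 to WT4) in every gene that passed a filter on low counts. Of the 47937 genes listed, 13839 passed and were tested, and 2966 of them (21.4%) changed by the rule used throughout, a fold change above 2 with an adjusted p below 0.05 (edgeR, quasi-likelihood F test, Benjamini-Hochberg). CD4+ T cells were taken from spleen and lymph node of C57BL/6 mice by negative selection, activated with anti-CD3 (5 µg/mL), anti-CD28 (2 µg/mL) and IL-2 (100 U/mL), polarized with anti-IL-4 (4 µg/mL), IL-12 (10 ng/mL) and IL-2 (10 ng/mL), and sequenced on day 4. The libraries labelled Odc-/- came from mice with Odc flox/flox crossed to CD4Cre, in which the CD4 promoter drives Cre in T cells. The study's methods describe its mice in general as littermates, typically 6 to 10 weeks old, of both sexes and matched for sex and age, and its cultures as started from naive cells where the labels say only CD4+. The study states that its control mice lacked Cre. Neither the labels nor the study gives the age or sex behind a library, or whether an animal or a pool made it. The p-values therefore measure the spread between libraries, which may in part be technical.

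Polyamine synthesis is limited by ornithine decarboxylase, which acts on ornithine. Its product, putrescine, is the precursor of spermidine, and spermidine that of spermine. Spermidine is also the donor for hypusine, an amino acid found in the translation factor eIF5A alone, which deoxyhypusine synthase and deoxyhypusine hydroxylase build on a lysine of that protein. TH1 cells are the helper cells that make IFN-γ under T-bet, and polyamine levels climb steeply when T cells are activated. The comparison asks how the transcriptome of cells polarized toward this fate differs when the first enzyme of the pathway is deleted.

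Total counts per library were 6873447 to 7683308 in the 8 TH1 libraries, so a count of 0 allows up to 0.397 to 0.453 CPM (3 counts, counting error only; CPM here are counts scaled to the TMM-adjusted library total). The libraries of a group were not alike. The first principal component held 85.4% of the variance over 9118 genes with a mean of at least 10 CPM, with WT1, WT2 and WT3 at -45.0, -39.6 and -45.7 and KO2, KO3 and KO4 at 53.8, 44.2 and 45.7. WT4 lay at -17.1 and KO1 at 3.54, each toward the other group. Over 2384 called genes, KO1 stood a median of 54.4% of the way from the mean of WT1 to WT3 to the mean of KO2 to KO4, and WT4 stood 29.2% of the way. KO1 also had the highest level of B cell transcripts, described with the other lineages near the end. Sex-linked transcripts differed too. Xist, the RNA of the inactive X, was at 886, 1374 and 1137 CPM in WT1, WT3 and WT4, at 0 in WT2, and at most 0.755 CPM in the libraries labelled Odc-/-, while the Y-linked Ddx3y was at 0 and 0.148 CPM in WT3 and WT4 and at 37.9 to 68.8 CPM in the other 6. WT1 had both. Leaving out KO1, WT4 or both moved the fold by over 1.5 times in 48 of 137 called genes named here, and in 46 of these the change was larger in size without both. KO1 and WT4 were chosen after the data were seen, as the libraries lying toward the other group. Larger folds without both follow from that choice and are no check of the results. Values without them are given beside the main results, and a term for Xist is among the alternatives.

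**Figure D1:**
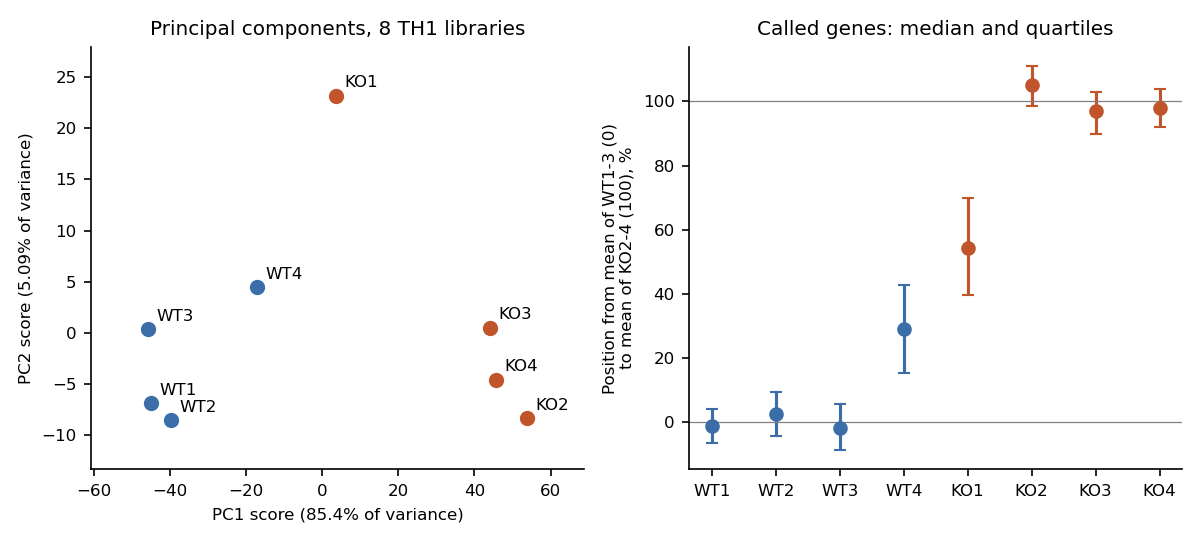
Left, scores of the 8 TH1 libraries on the first 2 principal components of log2(CPM + 1), with the share of variance on each axis. Right, for 2384 called genes, the median and quartiles of each library's position in percent, where 0 is the mean of WT1 to WT3 and 100 the mean of KO2 to KO4. WT4 (29.2) and KO1 (54.4) lie between the other libraries of both groups.

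Odc1, which encodes ornithine decarboxylase, was not lower in the libraries labelled Odc-/-. It was at 421, 461, 418 and 739 CPM in WT1 to WT4 and at 424, 680, 678 and 659 CPM in KO1 to KO4, and the groups overlapped. Its log2 fold change was 0.26 (SE 0.16, adjusted p = 0.176 from edgeR's test), and 0.62 without KO1 and WT4. The gene (chr12:17544794-17551505 of GRCm38, plus strand) was counted over all its exons, so the counts do not isolate the deleted ones. The genotype is therefore given as labelled throughout.

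Of the 2966 called genes, 1408 rose (10.2% of genes tested) and 1558 fell (11.3%), and the 4 values of one group lay wholly above the 4 of the other in 1128 of those that rose and 1263 of those that fell. Over all genes tested such separation was found in 43.3%, upward in 21.9% and downward in 21.5%. The median log2 fold change of all genes was 0.024. Genes that fell carried 10.0% of the WT counts and 3.59% of the counts in libraries labelled Odc-/-, and genes that rose carried 2.80% and 7.50%. Leaving out KO1 raised the number called to 3546 (25.6% of genes tested), and leaving out KO1 and WT4 raised it to 3916 (28.3%; 13.2% higher and 15.1% lower), of which 2852 were among the 2966. With DESeq2 it was 2977 (21.5%).

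**Figure D2:**
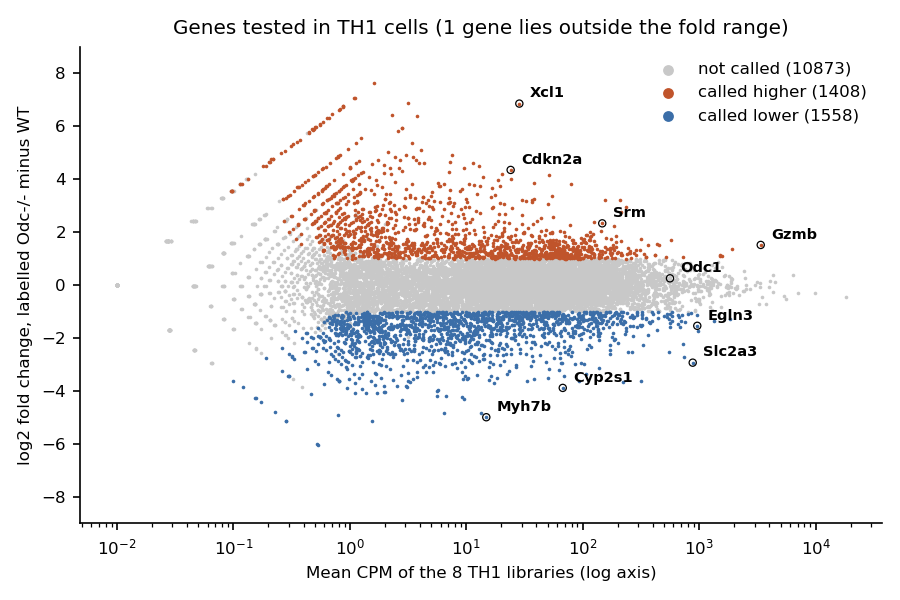
Each point is a gene tested, by its mean CPM over the 8 TH1 libraries (log axis) and its fitted log2 fold change, libraries labelled Odc-/- minus WT. The 1408 genes called higher are orange, the 1558 called lower blue and the others grey. A gene lies outside the plotted range, and Odc1 lies among the grey points.

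Genes for enzymes downstream of the deleted step were among those that rose. Of 9 tested genes of polyamine synthesis and its regulation, 4 (44.4%) were called higher and 2 (22.2%) lower, against 10.2% and 11.3% of all genes, with a median log2 fold change of 0.67. Srm, the spermidine synthase that uses putrescine, was at 31.8, 37.6, 37.4 and 87.3 CPM in WT1 to WT4 and at 131, 320, 262 and 266 CPM in KO1 to KO4. Every library labelled Odc-/- was above every WT library, and the log2 fold change was 2.34 (SE 0.43, adjusted p = 8.55e-05 from edgeR's test; 2.97 without KO1 and WT4). Amd1, the S-adenosylmethionine decarboxylase that supplies the aminopropyl group, rose by 1.52 on the log2 scale. Its near-identical copy Amd2 and the antizyme inhibitor gene Azin1 were the other genes called higher (both named after their values were seen), and reads of Amd1 and Amd2 may be shared in counting. Oaz2, an antizyme that targets ornithine decarboxylase for degradation, fell from 44.5 ± 4.91 to 17.1 ± 4.97 CPM (SD, n = 4 each; log2 fold change -1.39), and Azin2 had a log2 fold change of -1.13.

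Of 8 tested genes of polyamine breakdown and transport, none was called higher and 3 (37.5%) were called lower, against 11.3% of all genes. Smox, the spermine oxidase, was at 461, 427, 463 and 534 CPM in the WT libraries and at 342, 63.7, 153 and 111 CPM in KO1 to KO4, a log2 fold change of -1.49 (adjusted p = 0.00248 from edgeR's test) that became -2.06 without KO1 and WT4. In the hypusine pathway, 1 of 4 genes (25%) was called higher and none lower, against 10.2% and 11.3% of all genes. The gene called was Dohh, encoding deoxyhypusine hydroxylase (chr10:81384428-81388352 of GRCm38, plus strand). It was at 29.5, 30.9, 31.6 and 47.5 CPM in WT libraries and at 65.5, 97.9, 88.7 and 81.5 CPM in the others, a log2 fold change of 1.26 (adjusted p = 7.63e-06 from edgeR's test). Annotated neighbours overlap 47.5% of its exon bases, and the strand setting of the counting is not given in the sources used here. Dhps, for deoxyhypusine synthase, had a log2 fold change of 0.67 with an adjusted p of 8.95e-05 from edgeR's test, below the fold threshold, and Eif5a had one of 0.34 (adjusted p = 0.0796 from the same test).

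The methionine cycle feeds S-adenosylmethionine into polyamine synthesis. Of 22 genes for arginine, ornithine and methionine supply, 6 (27.3%) were called higher and none lower, against 10.2% and 11.3% of all genes. Mat2a, the methionine adenosyltransferase, rose from 94.8 ± 25.7 to 291 ± 69.7 CPM (SD, n = 4 each; log2 fold change 1.62), and Mtap, which salvages the methylthioadenosine released by spermidine and spermine synthesis, rose by 1.46 on the log2 scale. Enoph1, of the same salvage route, and Slc1a5, a glutamine transporter, also rose.

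Ribosome biogenesis was the list with the largest share called higher, cell type markers aside. Of 30 genes for making ribosomal RNA and assembling subunits, 25 (83.3%) were called higher and none lower, against 10.2% and 11.3% over all genes, and the median log2 fold change was 1.36. Nolc1, a nucleolar phosphoprotein of snoRNP assembly, was at 51.3, 56.6, 44.8 and 111 CPM in WT1 to WT4 and at 155, 379, 343 and 354 CPM in KO1 to KO4 (log2 fold change 2.22, adjusted p = 4.13e-05 from edgeR's test). Ncl, for nucleolin, was one of the most abundant genes called, at 957 ± 116 CPM in WT and 2050 ± 448 CPM in libraries labelled Odc-/- (SD, n = 4 each; log2 fold change 1.10). Rrs1, Rrp9 and Utp20, factors of pre-rRNA processing, rose by 2.09, 2.02 and 1.99 on the log2 scale. The count was 26 without KO1 and WT4. Small nucleolar RNAs, which guide modification of rRNA, went the same way, with 21 of 50 called higher and none lower.

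Myc, a regulator of growth genes, was at 332 to 480 CPM in WT libraries and at 387 to 446 CPM in the others, so the groups overlapped (log2 fold change 0.10, adjusted p = 0.519 from edgeR's test). It is named here after its values were seen. In the MYC, MAX and MXD network, 3 of 12 genes (25%) were called lower, against 11.3% of all genes, and none higher. Mxd4 and Mxi1, which encode repressors that compete with MYC for MAX, fell by 1.71 and 1.39 on the log2 scale. Searching the 250 bases upstream of RefSeq starts for the E-box CACGTG, a palindrome, found it in 1 of 21 ribosome biogenesis genes called higher that have a promoter entry, against 9.74% of 10137 genes tested that have one. The absence of these letters says nothing of other sites or other windows.

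Of 46 genes of the mitochondrial ribosome and its translation factors, 9 (19.6%) were called higher and none lower, and 37 had an adjusted p below 0.05 and a higher level, which 29.1% of all genes had, while 27.7% had a lower level by that rule. Their median log2 fold change was 0.70, and Mrpl12 and Mrpl20 rose by 1.37 and 1.36 on the log2 scale. Without KO1 and WT4 the count called was 18. Of 20 aminoacyl-tRNA synthetases, which charge tRNAs, 3 were called higher, a share of 15% against 10.2% of all genes, led by Wars (log2 fold change 1.34) and Hars (1.17), and 16 had an adjusted p below 0.05 and a higher level. The number called was 5 without KO1 and 7 without WT4 or without both. Rars lay at the threshold with 1.02 and was not called with DESeq2. Of 22 genes for ER chaperones and the unfolded protein response, 3 (13.6%, against 10.2% of all genes) were called higher, Creld2, Dnajb11 and Sdf2l1, and 5 without KO1 and WT4.

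Of the 13 protein-coding messages of the mitochondrial genome, 8 passed the filter and 3 (37.5%) were called higher, against 10.2% of all genes. The messages for cytochrome b and NADH dehydrogenase subunits 1 and 2 (mt-Cytb, mt-Nd1 and mt-Nd2) rose by 1.37, 1.09 and 1.07 on the log2 scale. mt-Cytb was at 910, 855, 937 and 1555 CPM in WT1 to WT4 and at 2125, 2939, 2954 and 2961 CPM in KO1 to KO4. Of 54 nuclear genes of the respiratory chain, 2 (3.7%, below the 10.2% of all genes) were called higher, Ndufa5 and Cycs, and 37 had an adjusted p below 0.05 with a higher level, against 29.1% of all genes. The number called was 4 without KO1, 6 without WT4 and 7 without both. Their median log2 fold change was 0.42.

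Of 51 cell cycle genes, 11 (21.6%) were called higher and 1 (1.96%) lower, against 10.2% and 11.3% of all genes. Genes of DNA replication licensing and nucleotide supply were among the former, including Cdc6 (log2 fold change 1.59) and Tyms, the thymidylate synthase (1.67). The CDK inhibitors split. Cdkn2a, which encodes p16 and p19ARF, was at 1.01, 1.42, 1.45 and 5.03 CPM in WT1 to WT4 and at 94.7, 29.8, 36.0 and 22.7 CPM in KO1 to KO4 (log2 fold change 4.35, adjusted p = 7.21e-07 from edgeR's test), and was highest in KO1. The log2 fold change was 3.7 without KO1, 5.12 without WT4 and 5.14 with a term in the fit for Xist, which was high in 3 of 4 WT libraries and in none labelled Odc-/-. Cdkn1b, for p27, was the only gene of the list called lower, at 242, 224, 230 and 147 CPM against 107, 47.9, 47.7 and 44.5 CPM (log2 fold change -1.77). Of 25 p53 targets, 2 were called higher and 3 lower, shares near those of all genes, and they included Aen, an apoptosis-enhancing nuclease (1.30), Trp53inp1 (-1.29) and Btg2 (-1.24). Of 34 genes of the integrated stress response, 3 (8.82%) were called higher and 2 (5.88%) lower, both below the shares of all genes. Without WT4, 7 were called higher, and without KO1, 5 were called lower.

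**Figure D3:**
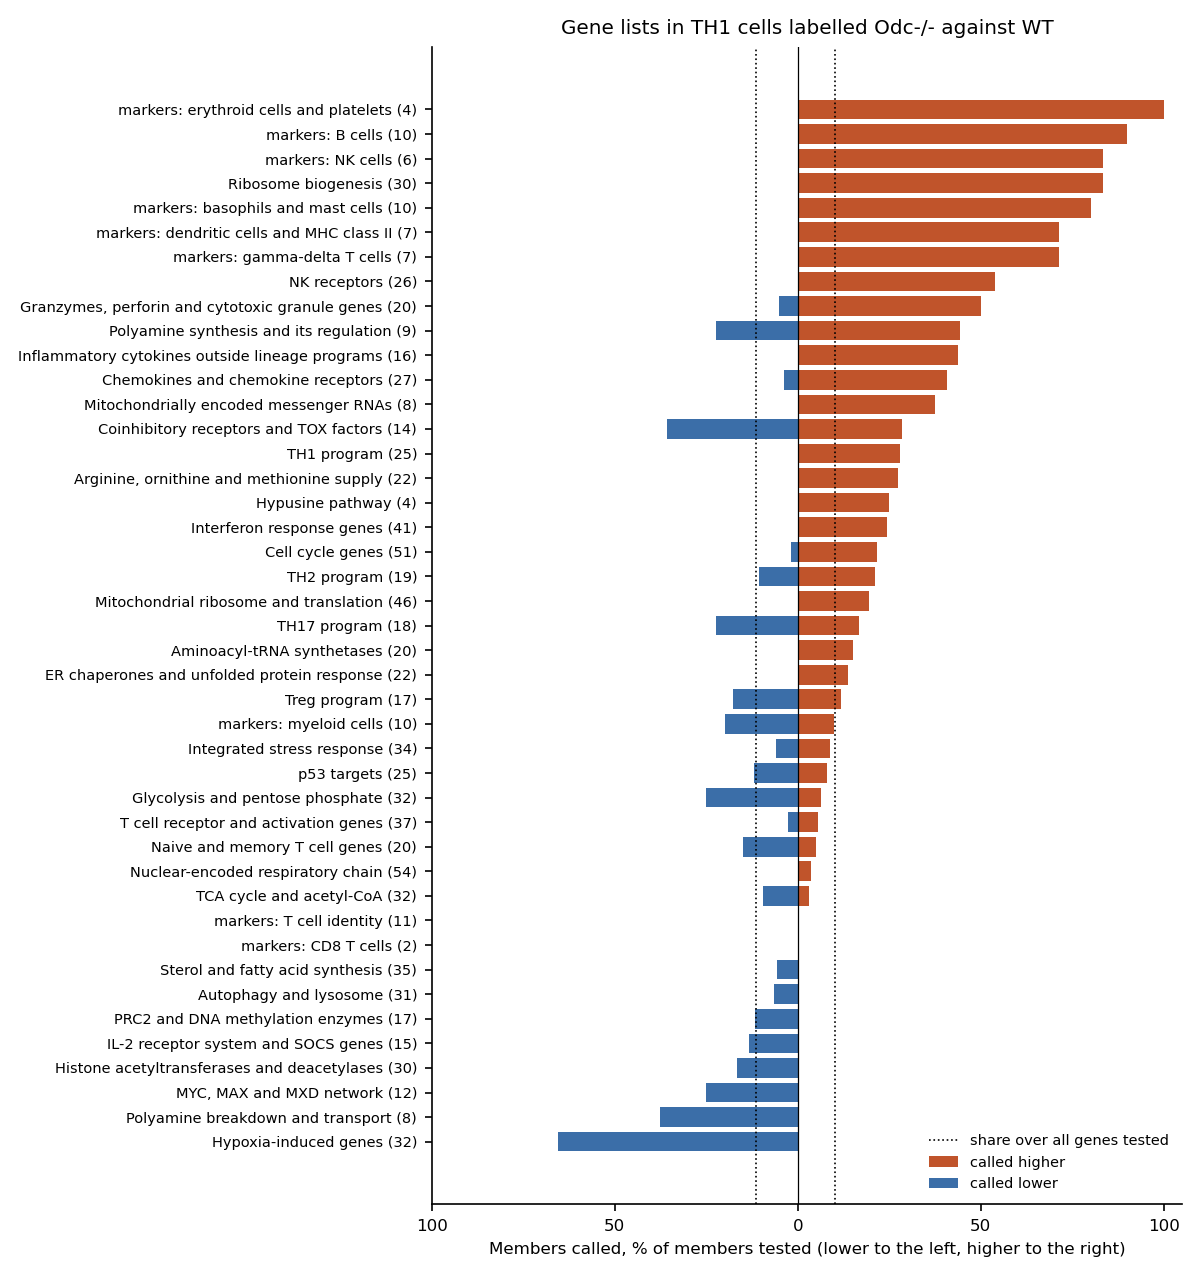
For each list, the share of tested members called higher (right, orange) and lower (left, blue) in libraries labelled Odc-/-, with the number tested in parentheses. Dotted lines mark the shares over all genes tested, 10.2% higher and 11.3% lower. Ribosome biogenesis leads the lists that are not cell type markers, and hypoxia-induced genes, a list written after the values were seen, have the largest share called lower.

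Several genes of glucose use fell. Of 32 genes of glycolysis and the pentose phosphate pathway, 8 (25%) were called lower and 2 (6.25%) higher, against 11.3% and 10.2% of all genes. Slc2a3, the glucose transporter GLUT3, was at 1870, 1746, 1683 and 908 CPM in WT1 to WT4 and at 663, 40.6, 48.7 and 64.7 CPM in KO1 to KO4. The groups did not overlap, and KO1 lay nearer to WT4 than to the other libraries of its label. The log2 fold change was -2.93 (SE 0.80, adjusted p = 0.00316 from edgeR's test) and became -5.12 without KO1 and WT4. Aldoc, an aldolase, behaved alike, at 331, 298, 372 and 184 CPM against 152, 10.2, 17.3 and 17.1 CPM. Eno2, an enolase, and Pfkm, a phosphofructokinase, fell by 1.93 and 1.71 on the log2 scale. Without KO1 and WT4, Aldoc and Pfkm had log2 fold changes of -4.51 and -2.37. In that setting 11 members were called lower, beside 15.1% of all genes.

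Slc2a3 and Aldoc belong to a wider set of genes that low oxygen induces through the HIF transcription factors. A list of 32 such genes was written after the values were seen, and it is described without a test. All 32 were tested, and 21 (65.6%) were called lower and none higher, against 11.3% and 10.2% of all genes. The median log2 fold change was -1.30. Egln3, the oxygen-sensing prolyl hydroxylase PHD3, was at 1587, 1529, 1578 and 1020 CPM in WT libraries and at 845, 338, 357 and 433 CPM in KO1 to KO4 (log2 fold change -1.53, adjusted p = 2.42e-05 from edgeR's test). Stc1, for the hormone stanniocalcin, and Adm, for the vasodilator adrenomedullin, fell by 4.18 and 2.94 on the log2 scale. Bnip3, a mitophagy receptor, fell from 400 ± 55.3 to 138 ± 75 CPM, and Vegfa, the vascular growth factor, from 218 ± 42.7 to 58.3 ± 44.6 CPM (SD, n = 4 each). Ankrd37 and Pfkfb3, whose product makes the phosphofructokinase activator fructose 2,6-bisphosphate, fell by 1.18 and 1.16. The last 4 are named after their values were seen. Without KO1 and WT4, the log2 fold changes of Stc1, Adm and Vegfa were -5.58, -5.19 and -2.73. In that setting 25 members were called lower, beside 15.1% of all genes. Lower calls were also found in TH2 cells (16), TH17 cells (13) and Treg cells (21), where 13.6%, 7.21% and 10.1% of all genes were called lower, and no member had a different effect in TH1 cells by the interaction test below.

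HIF binds a core of ACGTG or GCGTG, and the upstream sequence of 4 of these genes is shown for the first of these. The letters ACGTG, searched on both strands and including those within CACGTG, occurred in the 250 bases before the start of 12 of 16 called members that have a RefSeq promoter entry, against 25.2% of 10137 genes tested that have one and 18.5% of 27025 genes in the promoter table. GCGTG, searched in the same way, also occurred in 12 of the 16, against 49.5% of the genes tested and 30.9% of the table. Over all 26 members with an entry, called or not, ACGTG occurred in 18 (69.2%) and GCGTG in 19 (73.1%). The letters thus did not set the called members apart. The median GC content was 64.3% in the list and 59.6% in the genes tested. The list was drawn from known targets, and a match is a description, not a binding site. Below, the 250 bases before the start are printed 5′ to 3′ from RefSeq on GRCm38.p6 in lower case, with ACGTG and its reverse complement in capitals.
Egln3 (chr12:54203875-54204124, minus strand): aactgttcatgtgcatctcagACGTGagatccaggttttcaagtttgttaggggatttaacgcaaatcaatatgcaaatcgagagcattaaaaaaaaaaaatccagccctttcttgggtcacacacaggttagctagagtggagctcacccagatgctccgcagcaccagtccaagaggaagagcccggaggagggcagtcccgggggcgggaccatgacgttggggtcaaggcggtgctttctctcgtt
Bnip3 (chr7:138909507-138909756, minus strand): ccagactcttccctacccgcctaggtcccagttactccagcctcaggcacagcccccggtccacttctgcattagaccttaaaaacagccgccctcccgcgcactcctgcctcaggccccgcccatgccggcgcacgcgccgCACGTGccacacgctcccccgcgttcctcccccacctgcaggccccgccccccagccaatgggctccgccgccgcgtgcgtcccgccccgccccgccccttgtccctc
Ankrd37 (chr8:45999851-46000100, minus strand): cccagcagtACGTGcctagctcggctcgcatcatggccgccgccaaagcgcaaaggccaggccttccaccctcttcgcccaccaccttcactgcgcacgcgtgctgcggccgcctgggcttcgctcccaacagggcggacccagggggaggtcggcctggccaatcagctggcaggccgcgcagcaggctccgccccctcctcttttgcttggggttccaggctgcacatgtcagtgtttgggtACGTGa
Pfkfb3 (chr2:11502091-11502340, minus strand): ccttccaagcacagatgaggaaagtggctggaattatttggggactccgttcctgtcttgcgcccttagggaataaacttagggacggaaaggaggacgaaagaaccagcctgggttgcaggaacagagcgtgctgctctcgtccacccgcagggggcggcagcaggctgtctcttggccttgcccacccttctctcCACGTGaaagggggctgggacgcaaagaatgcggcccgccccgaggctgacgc

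Of 32 genes of the TCA cycle and acetyl-CoA, 3 (9.38%) were called lower and 1 (3.12%) higher, below the 11.3% and 10.2% of all genes. Gls2, a glutaminase, Pcx, the pyruvate carboxylase, and Acss2, which makes acetyl-CoA from acetate, fell by 1.80, 1.73 and 1.57 on the log2 scale, and Idh3a, an isocitrate dehydrogenase subunit, rose by 1.08. Acly, which makes cytosolic acetyl-CoA from citrate, was not called (log2 fold change -0.33). Without KO1, 5 members were called lower, and without KO1 and WT4 the value of Pcx was -2.45. Of 35 genes of sterol and fatty acid synthesis, 2 (5.71%) were called lower, the stearoyl-CoA desaturase gene Scd2 (2616 ± 319 to 1079 ± 507 CPM; SD, n = 4 each) and Stard4, and 17 had an adjusted p below 0.05 with a lower level, against 27.7% of all genes.

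No gene of 30 for histone acetyltransferases and deacetylases was called higher, and 5 (16.7%) were called lower. Kat6b, an acetyltransferase, was at 97.5, 93.3, 94.5 and 64.8 CPM in WT1 to WT4 and at 37.8, 16.7, 20.1 and 25.1 CPM in KO1 to KO4. The deacetylase genes Hdac5, Hdac7 and Sirt6 fell by 1.67, 1.56 and 1.34 on the log2 scale. Ep300, encoding p300, and Kat2a, encoding GCN5, did not pass the fold threshold, although each had 4 values on one side of all WT values. Their log2 fold changes were -0.66 (adjusted p = 0.0003) and 0.68 (adjusted p = 0.000735; both from edgeR's test). Of 17 genes of PRC2 and DNA methylation, 2 (11.8%, near the 11.3% of all genes) were called lower, among them Tet1, the methylcytosine dioxygenase, which was at 24.6, 25, 20.9 and 10.5 CPM in WT libraries and at 6.34, 2.25, 1.55 and 2.52 CPM in the others. Hdac7 and Tet1 had log2 fold changes of -2.16 and -3.48 without KO1 and WT4.

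Of 25 genes of the TH1 program, 7 (28%) were called higher and none lower, against 10.2% and 11.3% of all genes, and the median log2 fold change was 0.16. Without KO1 and WT4, 7 were called higher and 3 lower. Ifng was at 592, 696, 519 and 1913 CPM in WT1 to WT4 and at 1052, 2291, 2894 and 2000 CPM in KO1 to KO4. WT4 was above KO1, so the groups overlapped. The log2 fold change was 1.15 (SE 0.42, adjusted p = 0.0228 from edgeR's test), 1.97 without KO1 and WT4, and 1.85 with the Xist term. It was not called without KO3 (0.94), WT1 (0.96), WT2 (1.01) or WT3 (0.93), at an adjusted p below 0.01, by glmTreat, without the filter or with only the TH1 libraries in the fit. Tbx21, for T-bet, was at 119 to 205 CPM in WT libraries and 172 to 226 CPM in the others (log2 fold change 0.41, adjusted p = 0.241 from edgeR's test). The called members included the chemokines Xcl1, Ccl3 and Ccl4 and Eomes, the T-box factor of cytotoxic cells. Xcl1 was at 0, 0.284, 0.145 and 1.48 CPM in WT1 to WT4 and at 4.68, 96.0, 56.6 and 68.9 CPM in KO1 to KO4 (log2 fold change 6.86, adjusted p = 1.06e-05 from edgeR's test). Ccl3 rose by 3.24 and Eomes by 3.75. Xcl1 and Ccl3 had values of 8.84 and 4.65 without KO1 and WT4, and 7.5 and 4.11 with the Xist term. Xcl1 in WT1 to WT3 was under the level that a count of 0 allows, so the size of its fold is not determined.

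A list drawn from other libraries gave a different picture. The 100 genes highest in WT TH1 cells against each other WT subset in a separate count table, made with other WT libraries, had 91 members tested here, of which 35 (38.5%) were called lower and 10 (11%) higher, against 11.3% and 10.2% of all genes, with a median log2 fold change of -0.69. For the TH2, TH17 and Treg signatures made in the same way, 13 of 96 (13.5%), 18 of 88 (20.5%) and 6 of 89 (6.74%) were called lower and 20 (20.8%), 16 (18.2%) and 23 (25.8%) higher, with medians of 0.29, -0.07 and 0.86. Without KO1 and WT4, 40 members of the TH1 signature were called lower and 11 higher, and the TH2 median was 0.03.

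Of 19 genes in the TH2 program, 4 (21.1%) were called higher and 2 (10.5%) lower, against 10.2% and 11.3% of all genes. Il4 was at 0.427 to 0.871 CPM in WT libraries and at 1.06 to 4.34 CPM in the others (log2 fold change 1.86, adjusted p = 0.00958 from edgeR's test), and Il9 was at 0 in WT1, WT2 and WT3, at 0.888 CPM in WT4 and at 0.302, 14.2, 7.32 and 10.2 CPM in KO1 to KO4. Il1rl1, the IL-33 receptor, rose by 2.65 on the log2 scale, while Maf and Nfil3, encoding transcription factors, fell by 1.41 and 1.02. Il1rl1 did not mark TH2 cells in these data. Its WT means were 8.32 CPM in TH1 and 2.1 CPM in TH2 cells, and it is a member of the TH1 signature above. Il1rl1 and Maf had values of 3.65 and -2.07 without KO1 and WT4. Gata3, Il13 and Il5 were not called, with log2 fold changes of 0.35, 0.23 and 0.13. The last changed sign without KO1, KO3 or WT2 and without KO1 and WT4 (-0.63 to -0.11), and Il13 was at -0.01 without KO3 or KO4.

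In the TH17 program, 3 of 18 genes (16.7%) were called higher and 4 (22.2%) lower, against 10.2% and 11.3% of all genes. Il22 was at 3.03, 0.996, 3.05 and 3.55 CPM in WT1 to WT4 and at 20.2, 32.4, 51.7 and 40.4 CPM in KO1 to KO4 (log2 fold change 3.76, or 4.8 with the Xist term), and Ccr6, a chemokine receptor, rose by 2.96. The WT means of Il22 were 2.66, 9.34 and 1.82 CPM in TH1, TH2 and TH17 cells, so it did not mark TH17 cells in these data. Il23r and Il1r1, which encode cytokine receptors of TH17 cells, fell by 2.12 and 1.58. Ccr6 was at 2.25 without KO1, and Il1r1 at -2.18 without KO1 and WT4. With DESeq2, 6 members were called higher. Il17a and Il17f were not called, at 0 to 1.18 CPM in WT libraries and 0.529 to 5.74 CPM in the others, highest in KO1 for both, although both were called higher with DESeq2 and with the Xist term (2.11 and 2.16), Il17a also without KO2 (1.85), and Il17f without KO3 (2.12) or KO4 (2.18) and with a mean count of at least 50.

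In the Treg program, 2 of 17 genes (11.8%) were called higher and 3 (17.6%) lower, against 10.2% and 11.3% of all genes. Foxp3 was at 5.33 to 6.83 CPM in WT libraries and 6.22 to 11.9 CPM in the others, and the groups overlapped (log2 fold change 0.69, adjusted p = 0.126 from edgeR's test; other genes overlap 31.5% of its exon bases). Lrrc32, which holds latent TGF-β on the surface, was at 112, 76.8, 118 and 53 CPM against 39.9, 7.94, 11.3 and 15 CPM, and Ctla4, the coinhibitory receptor, fell from 825 ± 41.8 to 305 ± 215 CPM (SD, n = 4 each). Their log2 fold changes were -2.29 and -1.44, and -3.18 and -2.03 without KO1 and WT4, when 5 members were called lower. Nrp1 and Gpr83 rose by 2.70 and 2.34 on the log2 scale. Il10 was higher in every library labelled Odc-/- (104 to 162 CPM against 78.8 to 94.7) without passing the test (log2 fold change 0.61, adjusted p = 0.0511 from edgeR's test). Of 14 coinhibitory receptors and TOX factors, 4 (28.6%) were called higher, including Cd160, Tox and Cd244a, and 5 (35.7%) lower, including Ctla4 and Cd101.

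Cytotoxic genes rose in larger numbers. Of 20 granzymes, perforin and granule genes, 10 (50%) were called higher and 1 (5%) lower, against 10.2% and 11.3% of all genes, with a median log2 fold change of 1.17. Gzmb was the most abundant gene called higher, at 1745, 1400, 1452 and 2364 CPM in WT1 to WT4 and at 3272, 4833, 6465 and 5411 CPM in KO1 to KO4 (log2 fold change 1.52, adjusted p = 0.00196 from edgeR's test). Gzmc was at 36.0, 26.9, 46.2 and 108 CPM against 343, 363, 532 and 433 CPM, and Gzme, Gzmd and Gzmg, close copies whose reads may be split in counting, rose by 3.66, 3.16 and 2.51 on the log2 scale. Gzme and Gzmd had values of 4.51 and 3.9 without KO1 and WT4. Of 26 NK receptor genes, 14 (53.8%) were called higher and none lower, with a median of 1.46. They were low in level, with Klrg1 at 0.289 to 1.78 CPM in WT libraries and 7.10 to 9.26 CPM in the others, and the adaptor genes Tyrobp and Fcer1g at 11 to 18 and 14.0 to 25.6 CPM in libraries labelled Odc-/-. Klra genes among them are near copies of each other. Of the 6 NK cell markers, 5 were called higher, but all 6 also belong to the NK receptor, granzyme or TH1 lists, so they are no separate measure of NK cells. Their summed level was 27.6 to 63.8 CPM in WT and 169 to 363 CPM in the other libraries, and Gzma and Eomes made up 91.8% to 94.8% of the latter. With the Xist term, the medians of the granzyme and NK receptor lists were 1.88 and 2.42, and the log2 fold changes of Gzmb, Gzmc, Gzmd, Gzme, Tyrobp and Fcer1g were 2.32, 4.03, 4.02, 4.47, 3.27 and 2.96.

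Among secreted factors, several rose. Of 16 inflammatory cytokines outside the lineage programs, 7 (43.8%) were called higher and none lower, against 10.2% and 11.3% of all genes. Il2 was at 0 to 0.592 CPM in WT libraries and at 0.906, 18, 5.77 and 8.26 CPM in KO1 to KO4, and Penk, which encodes enkephalins, was at 15, 27.2, 12.3 and 52.6 CPM against 53.9, 184, 91.3 and 182 CPM. Of 27 chemokines and chemokine receptors, 11 (40.7%) were called higher and 1 (3.7%) lower, among them Cxcl10 (log2 fold change 3.6, or 5.27 without KO1 and WT4 and 4.37 with the Xist term). The list's median was 1.79, and 2.45 with that term. Of 41 interferon response genes, 10 (24.4%) were called higher and none lower, including Iigp1, an immunity-related GTPase (9.39, 11.7, 7.40 and 22.1 CPM against 60.9, 75.4, 66.1 and 72.1 CPM), Zbp1, a nucleic acid sensor (1.18), Ciita, the MHC class II transactivator (3.42, or 4.4 with the Xist term), and Mx1 (3.20).

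Of 37 genes for T cell receptor signals and activation, 2 (5.41%) were called higher and 1 (2.7%) lower, below the 10.2% and 11.3% of all genes. At any fold, 12 had an adjusted p below 0.05 with a higher and 11 with a lower level, and 29.1% and 27.7% of all genes did. The groups did not overlap in 8 members upward and 11 downward, against 21.9% and 21.5% of all genes. Egr2, an early response factor, was at 10.0 to 12.1 CPM in WT libraries and at 33.9 to 54.2 CPM in the others (log2 fold change 1.90, adjusted p = 3.8e-07 from edgeR's test), Nr4a3 rose by 1.54, and Fosl2, an AP-1 member, fell by 1.24. The number lower was 3 without KO1 and WT4. In the IL-2 receptor system, Jak3 and Stat5b fell by 1.11 and 1.03, and these 2 of 15 genes (13.3%) are a share near that of all genes called lower. Tnfrsf9, the costimulatory receptor 4-1BB, was among the most abundant genes called lower, at 1977, 2015, 1964 and 1710 CPM in WT1 to WT4 and at 1407, 414, 576 and 578 CPM in KO1 to KO4. Among 20 naive and memory T cell genes, S1pr1, needed to leave lymph nodes, Il6ra and Bach2 fell by 1.58, 1.46 and 1.03 (15% called lower), and 1 gene (5%) was called higher. The number lower was 6 without KO1 and WT4. In autophagy and lysosome genes, 2 of 31 (6.45%) were called, both lower and among them Wipi1, a share below that of all genes.

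The largest decreases by fitted fold change, among genes with separated groups and at least 10 CPM in WT, were in Myh7b, Dysf, Fn3k, Gm37261, Slc38a3, Rgs9, Stc1, Cbln3, Asb16 and Cyp2s1. Myh7b, a myosin heavy chain gene, was at 28.9, 29.7, 33.8 and 22.5 CPM in WT libraries and at 3.32, 0.265, 0.141 and 0 CPM in KO1 to KO4 (log2 fold change -4.99, adjusted p = 1.11e-06 from edgeR's test). Dysf, for the membrane repair protein dysferlin, and Slc38a3, an amino acid transporter, had log2 fold changes of -4.82 and -4.24. Myh7b, Dysf and Slc38a3 had values of -7.67, -6.76 and -7.49 without KO1 and WT4. Cyp2s1, a cytochrome P450, was at 80.8 to 158 CPM in WT libraries, at 33.8 CPM in KO1 and at 0.397 to 0.422 CPM in KO2 to KO4, and its log2 fold change was -3.88, or -8.37 without KO1 and WT4. In KO2 to KO4, Myh7b and Cyp2s1 were at or under the level that a count of 0 allows (0.397 to 0.453 CPM). The direction is clear there, but the size of the fold without KO1 and WT4 is not determined. The long RNA Neat1, a scaffold of paraspeckles, was at 1659, 1529, 1685 and 1131 CPM against 828, 244, 384 and 335 CPM. Anxa2, an annexin, had a log2 fold change of -1.14 and was not called without KO2.

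The largest increases were ranked among genes with separated groups and at least 10 CPM in libraries labelled Odc-/-. They included Xcl1, Cdkn2a, Dgkk, a diacylglycerol kinase gene, Scin, for the actin-severing protein scinderin, and Serpina3g, a serine protease inhibitor gene. These genes averaged 0.478 to 5.41 CPM in WT libraries. Dgkk was at 0.144, 2.13, 0.581 and 1.48 CPM in WT libraries and at 13.4, 42.9, 20.3 and 22.1 CPM in KO1 to KO4 (log2 fold change 4.49). Serpina3g was at 4.05, 1.85, 4.21 and 11.5 CPM against 68.6, 106, 121 and 93.1 CPM (4.17, or 4.96 without KO1 and WT4). The other 5 are genes of B cells (Iglc2 and Ighg2b) and of basophils and mast cells (Mcpt8 and Cpa3), and Csf2rb2, a cytokine receptor subunit.

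**Figure D4:**
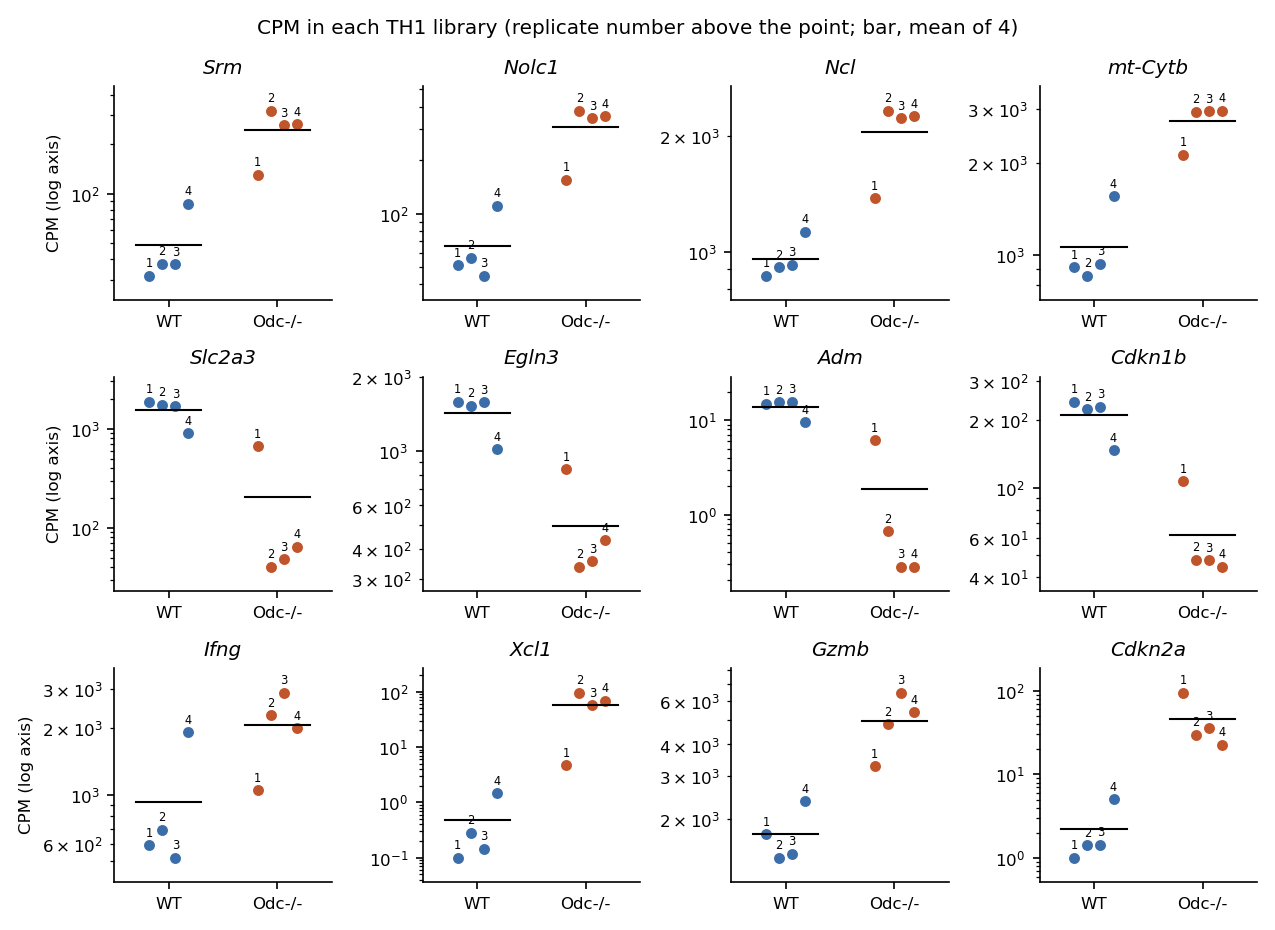
CPM of 12 genes in each TH1 library on a log axis, with the replicate number above each point and a bar at the mean of 4 (values under 0.1 are drawn at 0.1). The 12 are called genes chosen for display. In 11 of them the groups do not overlap, as in 43.3% of all genes tested, and Ifng overlaps because WT4 is above KO1. WT4 and KO1 are the libraries nearest to the other group in most panels.

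Transcripts of several other cell types rose with the label, while the summed level of myeloid markers fell and that of CD8 markers overlapped. All 11 T cell identity genes, 10 of which are also in the T cell receptor list, were tested and none was called, though 7 had an adjusted p below 0.05 with a lower level (against 27.7% of all genes) and 2 were called lower without KO1 and WT4, with a median log2 fold change of -0.51 and a summed level of 4277 to 4979 CPM in WT and 3317 to 3657 CPM in libraries labelled Odc-/-, so the cells carried their labelled T cell markers in every library. Of 10 B cell markers, 9 (90%) were called higher, against 10.2% of all genes. Their sum was 51.6 to 125 CPM in WT, 1401 CPM in KO1 and 308 to 381 CPM in KO2 to KO4. Ighm was at 27.9 to 60.4 CPM against 926, 203, 199 and 183 CPM. Of 86 immunoglobulin segments tested, 81 (94.2%) were called higher. MHC class II genes followed the same order, with Cd74 at 31.2, 33.4, 41.2 and 115 CPM against 662, 294, 278 and 248 CPM and H2-Aa at 1.88 to 4.00 CPM against 30.8 to 79.6 CPM, both highest in KO1, and 5 of 7 markers of dendritic cells and MHC class II were called higher (sum of 242 to 303 CPM against 397 to 1097). KO1 thus had the highest B cell sum while lying nearest to WT on the first component.

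Basophil and mast cell markers were called higher in 8 of 10 (80%), against 10.2% of all genes. Their sum was 15.4 to 20.2 CPM in WT, 29.9 CPM in KO1, 64.3 and 61.4 CPM in KO2 and KO4 and 218 CPM in KO3. Gamma-delta T cell markers were called higher in 5 of 7, counting Blk, which is also among the B cell markers, with a sum of 23.5 to 64.1 CPM against 159 to 367 CPM. Tcrg-C4, a constant gene of the gamma chain, was at 3.76, 3.13, 3.19 and 9.47 CPM in WT1 to WT4 and at 22.5, 99.9, 74.0 and 89.7 CPM in KO1 to KO4. All 4 tested erythroid and platelet markers were called higher at a sum of 3.41 to 5.81 CPM against 9.06 to 42.1 CPM, with Hba-a2 and Alas2 at 0 counts in all 8 libraries. Of 10 myeloid markers, 1 (10%) was called higher and 2 (20%) lower, against 10.2% and 11.3% of all genes. With DESeq2 the numbers were 3 and 1. A positive log2 fold change was found in 7 myeloid markers, and the median was 1.55. Their sum was 121 to 156 CPM in WT and 10.1 to 65.7 CPM in the others, and most of it was Ly6g, a neutrophil antigen gene, at 107 to 143 CPM in WT libraries and 1.06 to 51.2 CPM in the others. Elane was at 0 in all 8 libraries. CD8 markers summed to 7.82 to 34.2 CPM and 9.92 to 37.0 CPM, and neither was called. In bulk libraries, more cells of a type and more RNA per cell cannot be told apart, and the part of these cells in the lists of cytokine, chemokine, NK receptor, interferon and MHC genes was not tested.

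A direct test asked where the effect in TH1 cells differs from the mean effect in TH2, TH17 and Treg cells of the same table. It called 274 genes (1.98% of those tested), 73 (0.527%) with a more positive and 201 (1.45%) with a more negative effect in TH1 cells, and 623 without KO1 and WT4. Libraries of one replicate number in different subsets may share an animal, which the labels do not say. No gene of the ribosome biogenesis, glycolysis, mitochondrial ribosome, cell cycle, histone acetylation, polyamine or hypusine lists was among them. The test is against a mean of subsets, which were not alike. The median log2 fold change of ribosome biogenesis was 1.36, 1.53 and 1.43 in TH1, TH2 and Treg cells but 0.56 in TH17 cells. The TH1 program had 6 of 25 members with a more negative effect in TH1 cells, the largest number of any list.

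Ifng rose by 1.15 on the log2 scale in TH1 cells but by 3.61, 3.96 and 3.63 in TH2, TH17 and Treg cells, where WT levels were 7.56, 11.5 and 13.1 CPM rather than 930 CPM. The difference was -2.59 (SE 0.51, adjusted p = 0.00336 from edgeR's test). It was -1.96 without WT4 and -1.74 without KO1 and WT4 (adjusted p = 0.0144 from edgeR's test). Tbx21 had log2 fold changes of 0.41 in TH1 cells and 2.00, 2.18 and 1.95 in the others (difference -1.63, adjusted p = 0.00953 from edgeR's test), and Gzmb of 1.52 against 2.31, 3.46 and 4.76 (difference -1.99, adjusted p = 0.011, edgeR). Il10 had one of 0.61 in TH1 cells and 0.09, 2.59 and 4.34 in TH2, TH17 and Treg cells (difference -1.73, adjusted p = 0.0021; all from edgeR's test), so TH1 and TH2 cells lay together.

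Among called genes with a mean of at least 10 CPM in the highest of the 8 groups, the largest negative differences were in Spns2, I830077J02Rik, Ak5, Lhx6, Ermn and Fbxo2. Ermn alone of these reached that level in TH1 cells. The TH1 group means of the other 5 were 0.254 to 5.21 CPM, and they passed the limit through libraries labelled Odc-/- of TH17 or Treg cells, where they rose. In TH1 cells Ak5 and Fbxo2 fell (-3.05 and -2.15), and Spns2, Lhx6 and I830077J02Rik (-0.59) were not called. For Spns2, a sphingosine-1-phosphate transporter gene, and Lhx6, a homeobox gene, the effects were -0.66 and -1.26 in TH1 cells, -1.14 and -1.79 in TH2 cells, and at least 4.06 in TH17 and Treg cells. Ermn, which encodes an actin-binding protein of oligodendrocytes, fell in TH1 cells from 202, 263, 204 and 322 CPM in WT1 to WT4 to at most 32.2 CPM in KO1 to KO4, and KO1 did not stand apart. Its log2 fold change was -3.14 in TH1 cells and -0.40, -0.80 and 1.75 in TH2, TH17 and Treg cells (difference -3.32, adjusted p = 4.41e-05 from edgeR's test). The largest positive differences under the same limit were in Avpr1a, Il2, Il17f, Fcrl1, Ccr6 and Cavin3. Avpr1a averaged 0.181 CPM in WT and 0.378 CPM in libraries labelled Odc-/- in TH1 cells, under the level that a count of 0 allows, and passed the limit through WT Treg cells (24.1 CPM), so no effect in TH1 cells is read from it. Of the other 5, Ccr6 alone reached the limit in TH1 cells, while Il17f and Cavin3 were not called there (1.92 and 1.39). The difference in Il17f was not called without KO1 (2.54, adjusted p = 0.109 from edgeR's test) or without KO1 and WT4 (2.89), nor that in Cavin3 without WT4 (2.76, adjusted p = 0.0539, edgeR). Il2 rose by 4.60 on the log2 scale in TH1 and 2.77 in TH2 cells and had values of 0.36 and 0.04 in TH17 and Treg cells. Ccr6 rose by 2.96 in TH1 cells and had log2 fold changes of 1.17, -0.79 and -0.71 in the others. Fcrl1, a B cell receptor gene, rose in all 4 subsets, most in TH1 cells (4.62), beside the B cell markers given above. Egr2 (difference 1.14, adjusted p = 0.00573) and Nr4a3 (1.34, adjusted p = 0.00327; both from edgeR's test) had larger effects in TH1 cells, and for Nr4a3 the TH2 effect was larger still, at 1.93.

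**Figure D5:**
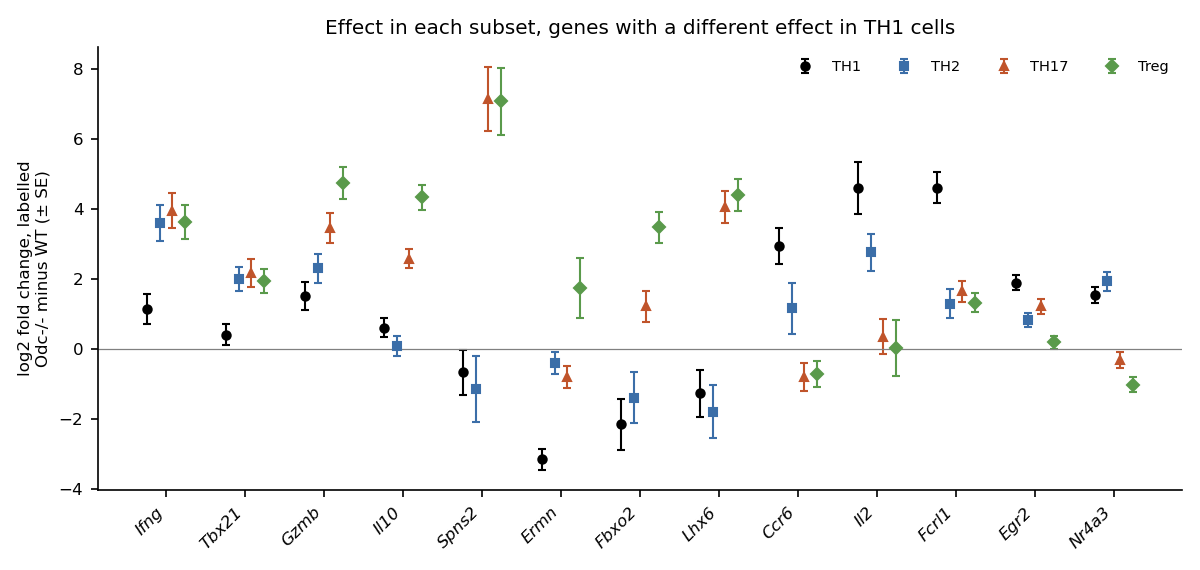
Fitted log2 fold change with its standard error, libraries labelled Odc-/- minus WT, of 13 genes called by the interaction test, in TH1, TH2, TH17 and Treg cells. The TH1 value of Ifng (1.15) lies below the other 3 (3.61 to 3.96), and for Spns2 and Lhx6 the TH1 and TH2 values lie together.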

How the data were processed

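RNA from 8 TH1 libraries, 4 per genotype, was sequenced with a stranded mRNA kit. The deposited values are raw counts per gene, which the authors made from aligned reads; STAR, featureCounts, deepTools and mm10 are named in the submitters' processing notes, with no versions, and the strand setting is not given in the sources used here. All 31 libraries of the Odc table entered 1 fit with a mean per group in edgeR 4.0.16 (R 4.3.3), with TMM scaling and filterByExpr, and the script was tested on simulated data. That table has no KO1 library of TH2 cells, so the TH2 effects and the interaction rest on KO2, KO3 and KO4 there. CPM are counts scaled to TMM-adjusted library totals. Genes were called at a log2 fold change above 1 and an adjusted p below 0.05. DESeq2 1.42.0, other filters, scalings and thresholds, a replicate block and left-out libraries were the alternatives. Of the Dohh table, only its 12 WT libraries were used, for the subset signatures, and its 12 Dohh KO libraries entered no result. Total counts per TH1 library were 6873447 to 7683308.

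Named genes were those of a short list from the study's question, the 10 largest increases and decreases with separated groups and at least 10 CPM, the 6 most abundant called each way, up to 4 called members per list with at least 5 CPM, and the 6 largest called interaction differences each way with at least 10 CPM in the highest group; a few of these are not reported here. The genes compared and the lists were chosen with earlier results of these data known, and the hypoxia list, the Xist term and the removal of KO1 with WT4 were added after the data were seen. Signatures came from 12 WT libraries of a second count table. Promoters are from RefSeq on GRCm38.p6, with entries on chromosome 18 left out.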

Additional observations from a re-analysis of the deposited data

Results flagged for a closer look

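In 157 named genes the lowest and highest of the 4 libraries of each group were compared with the rest by Dixon's gap test at 95%, which chance passes in about 1 in 20 groups. Of 314 groups, KO1 stood apart 28 times as the highest and 13 times as the lowest of its label, and WT4 stood apart 26 times as the highest and 6 times as the lowest.

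KO1 was the highest of the libraries labelled Odc-/-, in CPM, at 6.19 for Adm, 152 for Aldoc, 62.5 for Btg2, 662 for Cd74, 107 for Cdkn1b, 8.91 for Ciita, 33.8 for Cyp2s1, 14.8 for Eno2 and 145 for Ep300. It was also highest at 33.2 for Gls2, 79.6 for H2-Aa, 84.9 for Hdac5, 531 for Hdac7, 926 for Ighm, 46.2 for Il6ra, 678 for Jak3, 51.2 for Ly6g and 43.9 for Mxd4. Further values were 3.32 for Myh7b, 24.5 for Oaz2, 74 for Pcx, 65.4 for Pfkm, 663 for Slc2a3, 3.47 for Slc38a3, 163 for Stard4, 1407 for Tnfrsf9 and 125 for Vegfa. The last were 5.89 for Wipi1.

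KO1 was the lowest of its label at 109 for Dnajb11, 1657 for Eif5a, 18.3 for Enoph1, 134 for Hars, 78.5 for Idh3a, 68.6 for Mrpl20, 1381 for Ncl, 22.2 for Ndufa5 and 155 for Nolc1. It was also lowest at 424 for Odc1, 78.5 for Sdf2l1, 326 for Slc1a5 and 2125 for mt-Cytb.

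WT4 was the highest WT library, in CPM, at 42.9 for Amd1, 76.7 for Ccl3, 76.4 for Ccl4, 115 for Cd74, 5.03 for Cdkn2a, 38.3 for Creld2, 3.26 for Cxcl10, 47.5 for Dohh and 15.8 for Gzmd. WT4 led too at 5.48 for Gzme, 6.37 for Gzmg, 77 for Idh3a, 1913 for Ifng, 5.33 for Ighg2b, 1.63 for Iglc2, 11.4 for Il13, 0.888 for Il9 and 65.6 for Mrpl20. Other high values of WT4 were 739 for Odc1, 29.2 for Rrs1, 75.2 for Sdf2l1, 250 for Slc1a5, 87.3 for Srm, 9.47 for Tcrg-C4, 1555 for mt-Cytb and 596 for mt-Nd2.

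WT4 was the lowest WT library at 9.47 for Adm, 0.592 for Ak5, 1020 for Egln3, 64.8 for Kat6b, 11.5 for Slc38a3 and 1710 for Tnfrsf9.

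KO3 was the highest of its label at 66.7 for Cpa3 and 5.49 for Il23r. WT3 was the highest WT library at 15.4 for Wipi1.

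The interaction test in edgeR called 274 genes whose log2 effect in TH1 cells differed from the mean of the other 3 subsets. Among named genes the negative differences were -1.63 for Tbx21, -2.59 for Ifng, -1.73 for Il10, -1.67 for Rgs9, -1.99 for Gzmb, -5.02 for Spns2, -3.76 for I830077J02Rik, -3.54 for Ak5 and -3.49 for Lhx6. More were -3.32 for Ermn and -3.26 for Fbxo2. Without KO1 the differences of Spns2, Ak5 and Lhx6 were -5.73, -4.32 and -4.15. The positive differences were 3.23 for Il17f, 3.06 for Ccr6, 3.55 for Il2, 1.14 for Egr2, 1.34 for Nr4a3, 2.51 for Mx1, 2.09 for Ighm, 4.44 for Avpr1a and 3.19 for Fcrl1. More were 2.75 for Cavin3. Without KO1 the differences of Ighm and Ccr6 were 1.14 and 2.37.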

How the results depend on the processing

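No called gene among those named reversed its direction under the settings tried, while Il5 and Il13, which were not called, changed sign when some libraries were left out. Of 3448 gene values, 118 fell short of the threshold that the first analysis passed while 25 newly passed it. Amd2 lost its call without KO4 and Azin1 without KO2 or WT3. Besides these and Ifng, genes that lost their call when a library was left out, by their log2 fold changes, were Anxa2 (-0.96 without KO2), Azin2 (-0.99 without KO2), Bach2 (-0.98 without KO3, -0.97 without KO4, -1 without WT1, -0.96 without WT2), Enoph1 (0.97 without WT1), Idh3a (0.98 without WT1, 0.99 without WT3), Nfil3 (-0.87 without KO2, -0.94 without WT3), Rars (0.97 without KO2, 0.99 without KO3, 0.95 without KO4, 0.94 without WT1, 0.99 without WT2, 0.91 without WT3), Sdf2l1 (0.94 without WT1, 0.97 without WT2), Stard4 (-0.98 without KO2, -0.99 without WT2), Stat5b (-0.97 without KO3, -0.99 without KO4) and mt-Nd1 (0.99 without WT2). The calls in TH1 cells numbered 7866 (4033 higher, 3833 lower) without a fold threshold, 902 (422 and 480) when the fold itself was tested with glmTreat, and 1546 (695 and 851) with a mean count of at least 50. Leaving out each library gave 2561 to 3546 calls (1206 to 1677 higher, 1314 to 1968 lower), the highest total without KO1. The members called over all lists but the markers and the hypoxia-induced genes numbered 200 of 782, 522 without a fold threshold and 66 with glmTreat, beside 2966, 7866 and 902 of 13839 genes.

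The interaction numbered 623 genes (138 more positive, 485 more negative) without KO1 and WT4, 128 (31 and 97) at an adjusted p below 0.01, 575 (227 and 348) without a fold threshold, 15 (2 and 13) with glmTreat and 155 (46 and 109) with a mean count of at least 50. Leaving out each library gave 182 to 502 (45 to 97 and 132 to 405), highest without KO1 and lowest without KO2. The cause was not tested. With a term for Xist, added after the data were seen, 3061 genes were called in TH1 cells, 1537 of them higher, and 2724 of the 2966 calls were kept. Xist was high in 3 of 4 WT libraries and in none labelled Odc-/-. Among TH1 libraries, WT2 alone of the WT shares the Xist level of those labelled Odc-/-, and WT1, which also had Y-linked transcripts, counts as high. The term therefore cannot cleanly separate sex from the label, and the folds with it are not read as corrected for sex. With the term the fold of 23 of 137 called genes named moved by over 1.5 times, each of them larger, with Ifng going from 1.15 to 1.85 and Gzmb from 1.52 to 2.32, and the medians of the granzyme, NK receptor and chemokine lists went from 1.17, 1.46 and 1.79 to 1.88, 2.42 and 2.45, and that of ribosome biogenesis from 1.36 to 1.51. The other 21 were Gzmc, Gzmd, Gzme, Tyrobp, Fcer1g, Xcl1, Ccl3, Cxcl10, Ciita, Il22 and Cdkn2a, whose values stand beside their results, and Cd244a (2.75), Cpa3 (5), Csf2rb2 (5.75), H2-Aa (4.92), Ighg2b (5.03), Iglc2 (5.7), Il9 (5.88), Mcpt8 (5.64), Serpina3g (4.76) and Tcrg-C4 (4.64). Of the 137, Amd2 alone lost its call (adjusted p = 0.0536, edgeR). Mx1 lost its interaction call without KO1 (2.06).

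Libraries of equal number had deviations that correlated at 0.37, -0.01, -0.21 and 0.34, so the numbers were not taken to pair them. With the replicate number as a replicate block, 3052 genes were called in TH1 cells and 349 in the interaction. At these depths a gene at 0 counts cannot be told from one at up to 0.453 CPM.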

Other observations

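Classes of transcript differed in how often they were called. Of 815 long non-coding and unconfirmed transcripts tested, 180 (22.1%) were called lower and 66 (8.1%) higher, against 11.3% and 10.2% of all genes. Of 97 T cell receptor segments, 38 were called lower and 18 higher. Of 354 processed pseudogenes, 28 were called higher and 5 lower, and their reads may be shared with the parent genes.

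Called genes differed in length by direction. The median exon length was 3038 nt in genes called higher, 4129 nt in genes called lower and 4120 nt in all genes tested. The genomic span had medians of 12849, 19538 and 20034 bases in the same order. Length moves with transcript class and was not separated from it.

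Of the 1408 genes called higher in TH1 cells, 360 were also called higher in all 3 other subsets and 143 in none of them, and 24 were called lower in at least 1. Of the 1558 called lower, 390 were called lower in all 3 others and 186 in none, and 84 were called higher in at least 1. Of all genes tested, 13.6%, 7.21% and 10.1% were called lower in TH2, TH17 and Treg cells. The shares of all genes called higher there, or called in all 3, are not given here. These counts are therefore not read as many or few.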
